A study of Mus musculus with 6 samples.

Results

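The genes described here encode secreted and membrane modulators of Wnt reception: the Dickkopf ligands Dkk1, Dkk2, Dkk3 and Dkk4, the Dickkopf receptors Kremen1 and Kremen2, the low-density lipoprotein receptor-related proteins Lrp4, Lrp5 and Lrp6, and the secreted antagonist Sostdc1. They were chosen by name, each through its Ensembl mouse gene identifier, and all 10 had a probe set among the 25949 on the arrays. Earlier results of these data were known when they were chosen. The study had already listed Dkk4, Lrp4 and Kremen2 as upregulated on these arrays. Shares of the 10 genes set beside those of all probe sets are therefore descriptions and not independent evidence. The arrays compared E13.5 mammary buds of Eda-/- (Eda null, Tabby) embryos on a B6CBA background, kept for 4 h without or with 250 ng/mL of Fc-Eda-A1, a recombinant form of the ligand that these embryos lack. Epithelial buds were freed by hand of most of the surrounding mesenchyme, and per the sample labels about 20 buds from 5 to 6 embryos were pooled per array (the study's methods give a lower range), with the buds of each embryo divided between control and treatment, so that the 3 control and 3 Fc-Eda arrays form 3 pairs. Both groups therefore lacked Eda throughout, and the comparison is of added ligand against none in mutant tissue. In pools of buds, a lower level can mean fewer cells of a type or less RNA per cell, which cannot be told apart. Identifiers of cell type markers and of other Wnt pathway genes are not paired with names in the tables used here, so the tissue could not be checked against its markers and no other pathway gene is named.

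In canonical Wnt signaling, a Wnt ligand brings a Frizzled receptor together with the co-receptor Lrp5 or Lrp6, which leads to stabilization of β-catenin. Dkk1, Dkk2 and Dkk4 bind these co-receptors, and with a Kremen protein they remove them from the cell surface, whereas Dkk3 is a divergent family member that does not act in this way. Sostdc1 (also ectodin or Wise) is a secreted antagonist of Wnt and Bmp signaling, and Lrp4 is a receptor that binds it. Eda, a tumor necrosis factor family ligand, signals through its receptor Edar to the transcription factor NF-κB, and Wnt activity is needed for mammary placodes to form.

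Of the 10 genes, Dkk4, Lrp4 and Kremen2 were the ones with the large differences, higher after Fc-Eda by 2.12, 0.93 and 0.73 on the log2 scale, while Sostdc1 was lower, with a difference of -0.36. Their closest relatives on the list differed less: Dkk1 by 0.33, Kremen1 by 0.18, and Dkk2, Dkk3, Lrp5 and Lrp6 by between -0.03 and 0.07. Seen over all 10 genes, 8 had a mean difference above 0, with a median of 0.13, where 42.2% of all 25949 probe sets did, with a median of -0.02. In limma, which tests each probe set against its spread between pairs, moderated over all probe sets, 0 of the 10 genes passed a q-value of 0.05 in either direction, like the probe sets as a whole, of which 0% were called higher and 0% lower. Before adjustment, at a limma p under 0.05, 4 of the 10 were higher, where 2.73% of all probe sets were, and 1 was lower, where 3.33% were. IBMT, a moderated test whose expected variance follows the expression level, and a Cyber-T type test, which takes it from probe sets of similar level, are the other tests named in the study's methods. Both called the same 3 genes higher, Dkk4, Lrp4 and Kremen2, and 0 lower. The background of these calls was 0.339% higher and 0.0231% lower for IBMT, and 0.624% and 0.119% for the Cyber-T type test. The calls of these genes thus depended on the test, and also on normalization and filter: limma called all 3 higher with each array centred on its median (of 56 probe sets called higher) or with probe sets below the median level left out (of 85). IBMT called 0 of the 10 higher after quantile normalization, where it called 1 probe set in all. Without pair 1, IBMT called 0 of the 10 genes and also 0 of all probe sets. The Cyber-T type test called the same 3 higher with each pair left out in turn, when it called between 78 and 337 of all probe sets higher. With a pair left out, this test gives most weight to the spread of probe sets of similar level. These calls are therefore a weak check on each gene's own spread. Without pair 1 it called Sostdc1 lower as well, 1 of 175 probe sets called lower there, against 31 with all pairs.

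**Figure D1:**
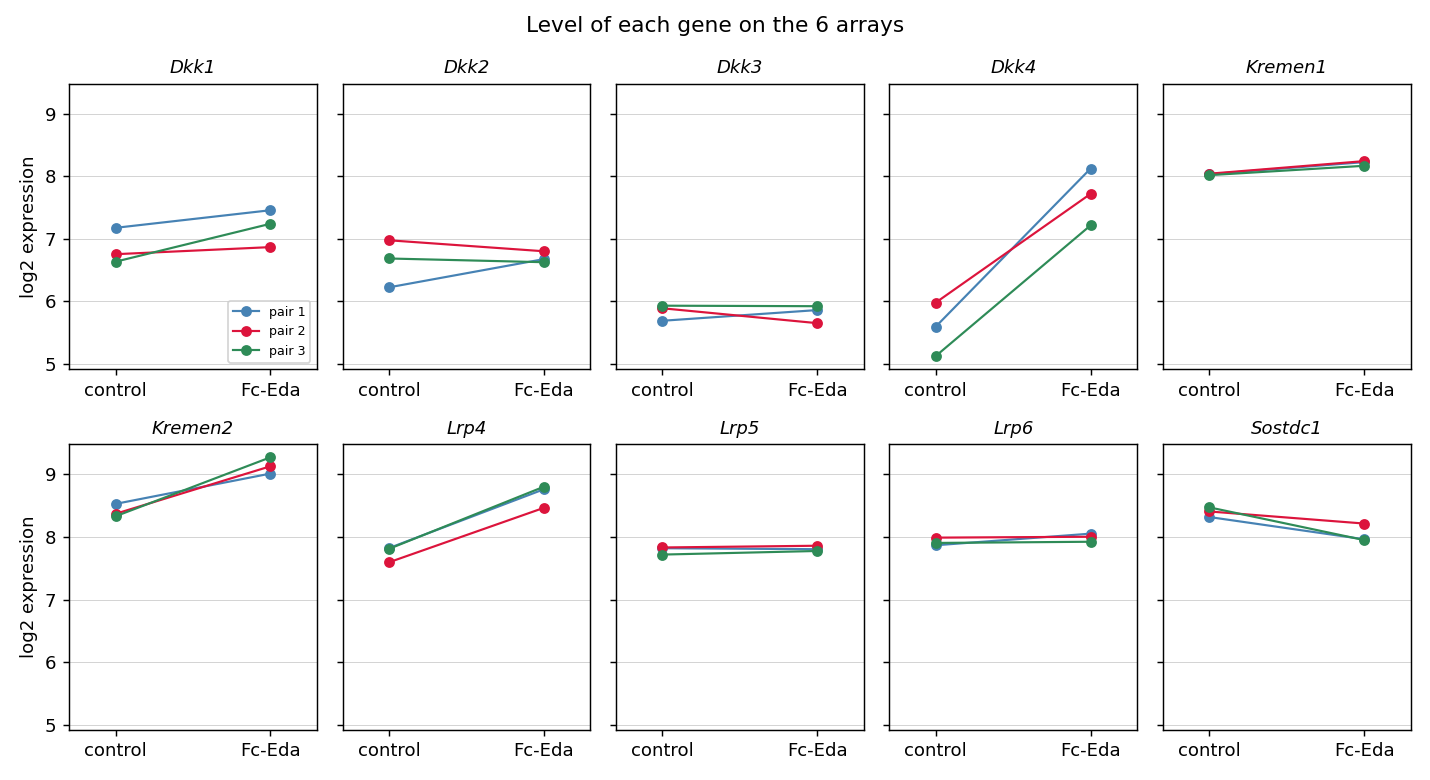
Level of each gene (log2 expression, vertical axis) in control medium and after Fc-Eda, a line joining the 2 arrays of a pair. Dkk4, Lrp4, Kremen2 and Kremen1 lie higher and Sostdc1 lower on every Fc-Eda array than on any control array. Heights in different panels come from different probes and are not comparable.

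Groups that do not overlap were seen in 5 of the 10 genes. All 3 Fc-Eda arrays lay above all 3 control arrays in 4 of them, where 3.98% of all probe sets did, and below in 1, where 5.11% did. The difference was above 0 in all 3 pairs in 6 genes, against 13.2% of all probe sets, and below 0 in all 3 in 1, against 15.3%. By pair, 8 of the 10 genes were higher in pair 1 and 7 in each of pairs 2 and 3, against 40.8%, 50.1% and 52.3% of all probe sets. The arrays themselves differed little except for that of control 1, whose median over all probe sets was 4.99, where the others lay between 4.80 and 4.83. Its interquartile range was also narrower, at 2.59, where the others lay between 2.81 and 2.96. The median difference between Fc-Eda and control over all probe sets was -0.07 in pair 1, 0.0005 in pair 2 and 0.008 in pair 3. The SD of the differences over all probe sets was 0.33, 0.21 and 0.23 in these pairs. All 10 genes were above the median of all probe sets on all 6 arrays. No detection call was used here, so whether a low level stands above background was not judged.

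Dkk4 (ENSMUSG00000031535_at), a secreted inhibitor that blocks the Wnt co-receptors, was at 5.60, 5.98 and 5.13 on the control arrays of replicates 1 to 3 and at 8.12, 7.72 and 7.21 on the Fc-Eda arrays. The groups were far apart, with 1.23 between the highest control and the lowest Fc-Eda value. The control mean was 5.57 ± 0.43 (SD, n = 3) and the Fc-Eda mean 7.69 ± 0.45, a 4.34-fold difference. Within pairs it was 2.53, 1.74 and 2.09, with a limma standard error of 0.16 and a 95% interval from 1.71 to 2.53 (q = 0.100 in limma, 0.0036 in IBMT and 2.06e-05 in the Cyber-T type test). Among all probe sets this mean rise had rank 3. Without pair 1, which holds the control array that stands apart, the difference was 1.91.

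Dkk1 (ENSMUSG00000024868_at), the best studied Wnt antagonist of the family, was at 7.17, 6.75 and 6.63 in control medium and 7.46, 6.87 and 7.24 after Fc-Eda. The groups overlapped, since the Fc-Eda array of replicate 2 lay below control 1. It was higher in each pair, by 0.28, 0.11 and 0.61, with a mean of 0.33 and a 95% interval from 0.03 to 0.64, and it was among the 4 genes under the unadjusted limma threshold but passed no q threshold (q = 0.678 in limma, 0.384 in IBMT and 0.296 in the Cyber-T type test). Without pair 3 the mean was 0.20, and without pair 2 it was 0.44. Dkk2 (ENSMUSG00000028031_at), which can stimulate or block the co-receptors depending on its partners, was at 6.22, 6.98 and 6.68 in control medium and 6.67, 6.80 and 6.63 after Fc-Eda. Only pair 1 was higher, by 0.45, and the others were lower, at -0.18 and -0.06, so that the mean of 0.07 turned to -0.12 without pair 1. Dkk3 (ENSMUSG00000030772_at) was at 5.69, 5.89 and 5.93 in control medium and 5.86, 5.65 and 5.92 after Fc-Eda. Its mean difference of -0.03 lay well within the spread between pairs (SD 0.20), and the 95% interval ran from -0.30 to 0.25.

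Kremen2 (ENSMUSG00000040680_at), a membrane receptor for Dickkopf proteins, was at 8.53, 8.37 and 8.33 in control medium and 9.01, 9.13 and 9.27 after Fc-Eda. The lowest Fc-Eda value was 0.48 above the highest control value, that of control 1. The mean moved from 8.41 ± 0.10 (SD, n = 3) to 9.14 ± 0.13, a 1.66-fold difference at rank 62 of all rises. Pair by pair it was 0.48, 0.76 and 0.94, with a limma standard error of 0.11 and a 95% interval from 0.44 to 1.02 (q = 0.311 in limma, 0.0284 in IBMT and 0.00198 in the Cyber-T type test). Without pair 1 it was 0.85. In IBMT its call was lost without pair 1 (q = 0.175), without pair 2 (q = 0.0520), after cyclic loess (q = 0.164) and after quantile normalization (q = 0.191).

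Its paralog Kremen1 (ENSMUSG00000020393_at), which binds the same ligands, was at 8.03, 8.04 and 8.02 in control medium and 8.22, 8.24 and 8.17 after Fc-Eda. The difference was small but very even, at 0.19, 0.20 and 0.15, with an SD of 0.03 between pairs. The groups did not overlap, yet in limma, where that spread is moderated towards the spread of all probe sets, the 95% interval of -0.02 to 0.38 included 0 (q = 0.732 in limma, 0.411 in IBMT and 0.491 in the Cyber-T type test).

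RefSeq windows from 250 bases before to 50 after the start of transcription were at hand for 3 of the 10 genes, Kremen2, Dkk1 and Dkk2, on GRCm38.p6. They are shown for Kremen2, called higher in IBMT and the Cyber-T type test, and for Dkk1, which was not called. Each was searched on both strands for the NF-κB consensus, because Eda signals through NF-κB, and for the Tcf/Lef motif CTTTGAA or CTTTGAT, which β-catenin's partners bind. Kremen2 lies on the minus strand, with the window at chr17:23745780-23746079. Dkk1 is also on the minus strand, with the window at chr19:30549447-30549746. Both are written 5′ to 3′ on the gene's own strand. Capitals mark matches to the NF-κB consensus in the window of Kremen2 and the Tcf/Lef match in that of Dkk1.
Kremen2: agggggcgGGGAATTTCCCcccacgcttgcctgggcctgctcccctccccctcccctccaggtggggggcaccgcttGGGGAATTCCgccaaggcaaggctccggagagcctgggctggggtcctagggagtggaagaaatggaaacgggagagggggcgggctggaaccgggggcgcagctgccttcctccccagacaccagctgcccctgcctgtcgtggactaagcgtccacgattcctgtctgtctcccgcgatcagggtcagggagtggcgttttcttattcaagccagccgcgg
Dkk1: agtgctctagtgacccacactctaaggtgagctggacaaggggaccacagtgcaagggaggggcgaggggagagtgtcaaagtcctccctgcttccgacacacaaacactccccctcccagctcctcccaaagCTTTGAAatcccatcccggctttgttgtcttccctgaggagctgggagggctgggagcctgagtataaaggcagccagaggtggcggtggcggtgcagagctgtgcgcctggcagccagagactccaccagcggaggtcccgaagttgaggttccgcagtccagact
The Kremen2 window held 3 matches to the NF-κB consensus. GGGAATTTCC, at -242 to -233 from the start, overlaps GGAATTTCCC, which matches on the other strand from -241 to -232, and GGGGAATTCC lies at -173 to -164. The overlapping matches come from 1 stretch of bases read on both strands and are not separate sites. At least 1 match was present in 8.46% of 32851 RefSeq windows of the same length. At least 2 were present in 1.22% and at least 3 in 0.186%, overlapping matches counted separately. Dkk1 and Dkk2 had 0 matches. The Tcf/Lef motif was found once in the Dkk1 window, at -117 to -111, and in neither of the others, and 8.65% of all windows held at least 1. These are matches of letters and not measured binding, and a match outside the window would not be seen.

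Lrp4 (ENSMUSG00000027253_at), the receptor of the Lrp family that binds Sostdc1 and dampens Wnt signaling in skin appendages, was at 7.82, 7.59 and 7.81 in control medium and 8.76, 8.46 and 8.80 after Fc-Eda. The groups were 0.64 apart, and replicate 2 was the lowest of both. The mean rose from 7.74 ± 0.13 (SD, n = 3) to 8.68 ± 0.18 by IBMT and the Cyber-T type test (q = 0.0036 and q = 0.000103; q = 0.130 in limma), a 1.91-fold difference at rank 32 of all rises. The pairs gave 0.94, 0.87 and 0.99, with a limma standard error of 0.08 and a 95% interval from 0.73 to 1.14. With an SD of 0.06 between pairs, it was the most even of the 3 large differences.

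The co-receptors themselves had small mean differences. Lrp5 (ENSMUSG00000024913_at) was at 7.82, 7.83 and 7.72 in control medium and 7.80, 7.86 and 7.78 after Fc-Eda. Its mean difference of 0.02 had a 95% interval from -0.18 to 0.23, and it turned to -0.02 after quantile normalization or cyclic loess. Lrp6 (ENSMUSG00000030201_at) was at 7.87, 7.99 and 7.90 in control medium and 8.05, 8.00 and 7.92 after Fc-Eda. Most of its mean difference of 0.07 came from pair 1, with 0.19, where pairs 2 and 3 gave 0.01 and 0.02. The 95% interval ran from -0.15 to 0.29, and the mean was 0.02 without pair 1, 0.0228 after quantile normalization and 0.0274 after cyclic loess.

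Sostdc1 (ENSMUSG00000036169_at) was at 8.32, 8.41 and 8.47 in control medium and 7.96, 8.21 and 7.95 after Fc-Eda. The highest Fc-Eda value, of replicate 2, was 0.10 below the lowest control value, of replicate 1. The control mean was 8.40 ± 0.08 (SD, n = 3) and the Fc-Eda mean 8.04 ± 0.15, which is 1.28-fold lower. It was lower in each pair, with differences of -0.36, -0.19 and -0.52, and the 95% interval in limma was -0.61 to -0.11 (q = 0.576 in limma, 0.166 in IBMT and 0.0975 in the Cyber-T type test). By size it was at rank 612 of all falls. Among the 10 genes it was the only one below 0 in all 3 pairs.

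**Figure D2:**
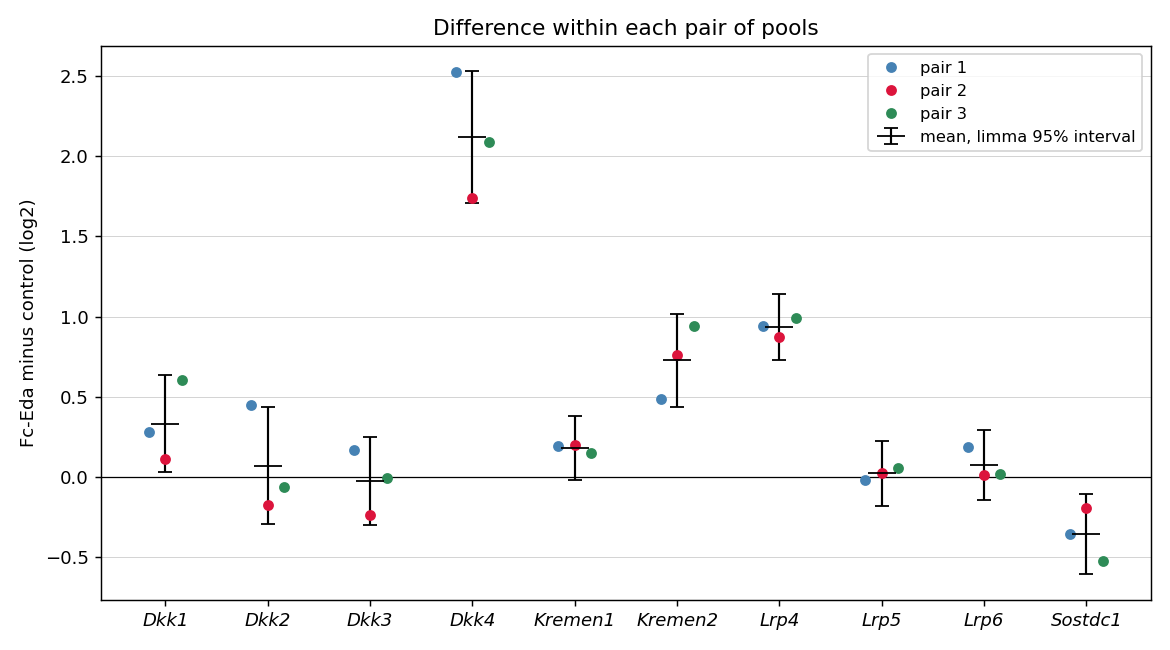
Fc-Eda minus control (log2, vertical axis) for each gene, with the 3 pairs as points and the mean with its 95% interval from limma as a black bar. Dkk4, Lrp4, Kremen2 and Dkk1 have intervals above 0 and Sostdc1 one below 0; the other 5 include 0, before any correction for the number of probe sets.

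Because probes of different genes bind with different strength, levels of paralogs were not ranked, and only their responses, the Fc-Eda minus control differences, were set against each other. In all, 10 pairs of paralogs were compared with an exact two-sided sign-flip permutation test over the 3 pairs of arrays, whose smallest possible p is 0.25, so that none could pass a threshold of 0.05. Dkk4 responded more than Dkk3, Dkk2 and Dkk1 in 3 of 3 pairs, by 2.14 ± 0.19 (SD), 2.05 ± 0.12 and 1.78 ± 0.41 (exact permutation p = 0.25, Benjamini-Hochberg adjusted p = 0.357 for each). The smallest of these 9 values was 1.48, for Dkk1 in pair 3. Among Dkk1, Dkk2 and Dkk3, the response of Dkk3 was below that of Dkk1 in 3 of 3 pairs, with differences of -0.11, -0.35 and -0.61 (exact permutation p = 0.25, adjusted 0.357). Dkk2 against Dkk1 and Dkk3 against Dkk2 changed sign between pairs, with means of -0.26 ± 0.42 and -0.10 ± 0.17 (exact permutation p = 0.50, adjusted 0.556 for each). With a pair left out, the response of Dkk2 minus that of Dkk1 lay between -0.48 (without pair 1) and -0.0594 (without pair 3). Dkk3 minus Dkk2 lay between -0.17 (without pair 3) and -0.00572 (without pair 1), and Dkk3 minus Dkk1 between -0.48 (without pair 1) and -0.23 (without pair 3).

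Kremen2 responded more than Kremen1 in 3 of 3 pairs, by 0.29, 0.56 and 0.79, a mean of 0.55 ± 0.25 (exact permutation p = 0.25, adjusted 0.357). Both receptors were higher in every pair, though Kremen1 passed no q threshold. Lrp4 responded more than Lrp5 by 0.91 ± 0.06 and more than Lrp6 by 0.86 ± 0.11, again in 3 of 3 pairs (exact permutation p = 0.25, adjusted 0.357 for each). Over the pairs, the response of Lrp6 minus that of Lrp5 ran from -0.04 to 0.20, with a mean of 0.05 (exact permutation p = 1, adjusted 1).

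**Figure D3:**
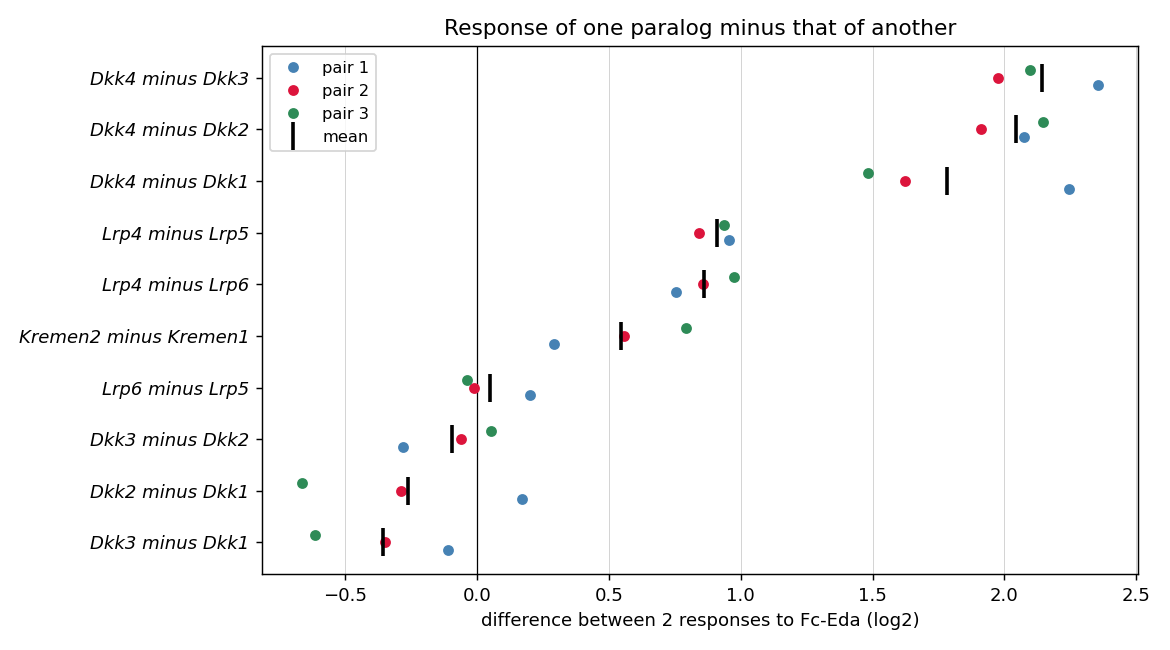
Response of 1 paralog minus that of another (log2, horizontal axis), with the 3 pairs of arrays as points and the mean as a black bar. The rows for Dkk4, Lrp4 and Kremen2 lie above 0 in every pair, from 0.29 to 2.35, and Dkk3 minus Dkk1 below 0; the other 3 rows span 0.

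The same mean differences can be placed among those of all probe sets. Ranks among rises were 3 for Dkk4, 32 for Lrp4, 62 for Kremen2, 481 for Dkk1 and 1670 for Kremen1. Lrp6, Dkk2 and Lrp5 followed at 5599, 5644 and 9020, with differences smaller than or close to their own spread between pairs.

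**Figure D4:**
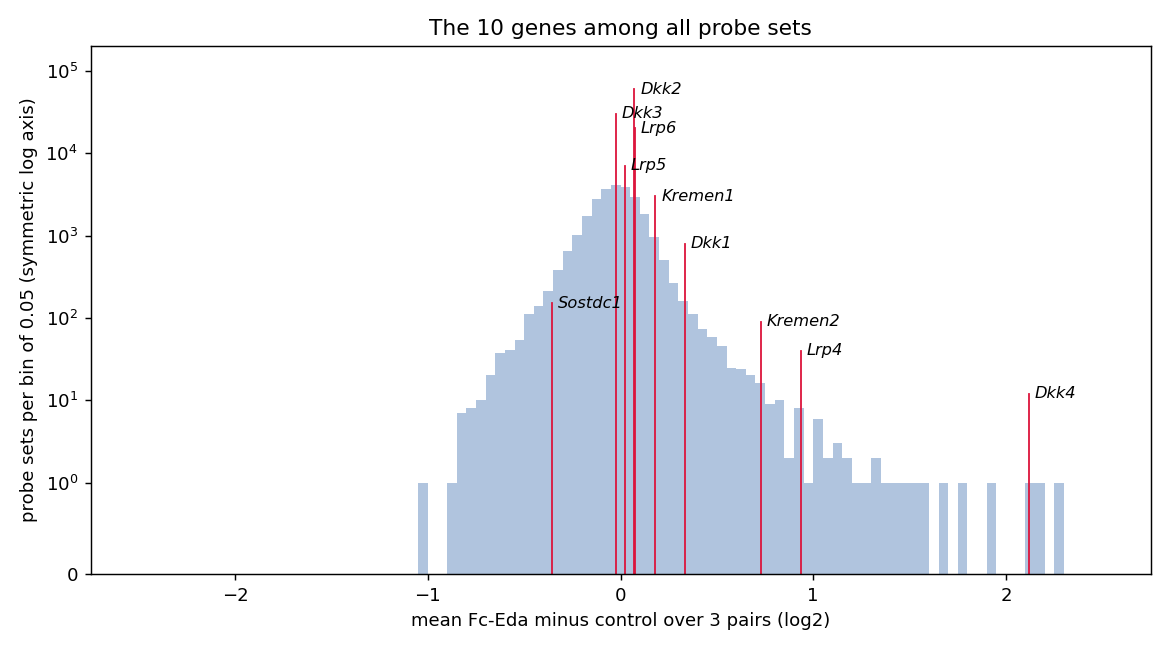
Number of probe sets (vertical axis, symmetric log scale) by mean Fc-Eda minus control over the 3 pairs (log2, horizontal axis), in bins of 0.05. Red lines mark the 10 genes, and their heights carry no value. Dkk4, at 2.12, lies near the upper end, where the largest difference was 2.25, and Sostdc1, at -0.36, lies in the lower flank.

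The spread behind these values was uneven. With all probe sets ordered by level into 10 groups of equal size, the SD of the 3 pair differences was above the 90th percentile of its group for Dkk4 (0.39), Dkk2 (0.33), Dkk1 (0.25) and Kremen2 (0.23). It was below the 10th percentile for Lrp5 (0.04) and Kremen1 (0.03). The others lay between, with Dkk3 at 0.20, Sostdc1 at 0.16, Lrp6 at 0.10 and Lrp4 at 0.06. In control medium the SD over the 3 arrays, a different measure, was 0.43 for Dkk4, 0.38 for Dkk2, 0.28 for Dkk1, 0.13 for Lrp4 and 0.01 for Kremen1.

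**Figure D5:**
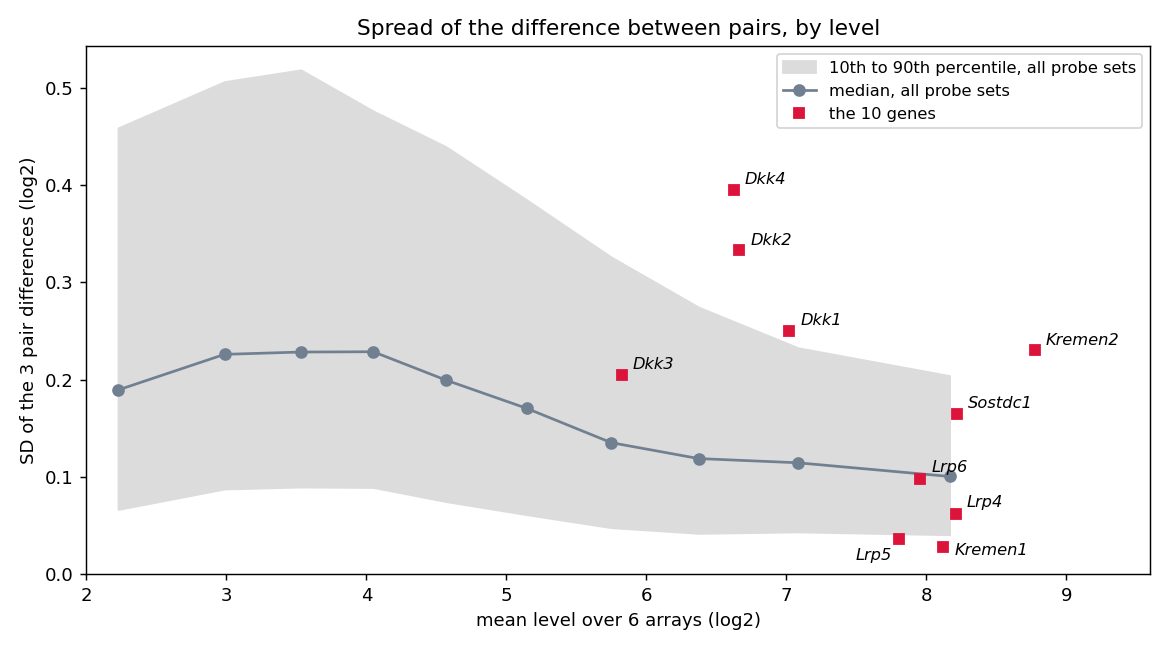
SD of the 3 pair differences (log2, vertical axis) against the mean level over the 6 arrays (log2, horizontal axis). Squares are the 10 genes, the line is the median of all probe sets in 10 groups by level, and the band spans their 10th to 90th percentile. The median was 0.23 around a level of 4.05 and 0.10 around 8.17.

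Over the 6 arrays, the pattern of Dkk4 was most like that of Kremen1 among the 10 genes (Pearson's r = 0.98), and that of Lrp4 most like Kremen2 (r = 0.95). Sostdc1 ran opposite to Lrp4 (r = -0.94). These are descriptions over 6 arrays that share the treatment and the pairs. Of all probe sets, ENSMUSG00000073481_at (r = 0.996) and ENSMUSG00000087674_at (r = 0.994) followed Dkk4 most closely, though with smaller differences of 0.34 and 0.69. For Sostdc1 the closest were ENSMUSG00000058396_at (r = 0.989, difference -0.27) and ENSMUSG00000085878_at (r = 0.984, difference -0.18).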

How the data were processed

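Gene expression was measured on 6 Affymetrix Mouse Exon 1.0 ST arrays, 3 per group, with groups and replicate numbers from the sample titles and the dose from the study's methods. The deposited values are log2 expression for 25949 Ensembl gene probe sets, made by the authors, whose processing notes name RMA, with no version. The medians and interquartile ranges of the arrays differ, so the values do not share one distribution as after quantile normalization, and the probe set definition is not given in the sources used here. The 10 genes were identified by the names given with their identifiers, since the reference table named 0 of the identifiers. These genes and the lists were chosen with earlier results of these data known.

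In limma 3.58.1 (R 4.3.3), a linear model with treatment and pair was fitted to every probe set. Storey q-values (spline of 3 degrees of freedom, lambda from 0.05 to 0.95) were computed over all of them, and 0.05 was the threshold. Pairing follows from shared embryos, and the deviations of paired arrays correlated with r = 0.08, 0.29 and 0.29. IBMT (loess span 0.75) and the Cyber-T type test (window 101, prior weight 10) were rebuilt from their published form and may differ from the authors' programs. All 3 tests were tested on simulated data, in which the spread of pair differences depended on level alone. Spread particular to a gene was not simulated. Alternatives were other tests, filters and normalizations and left-out pairs. The number of arrays limits the precision.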

Additional observations from a re-analysis of the deposited data

How the results depend on the processing

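Limma with the pairs as a block called 0 of the 10 genes higher and 0 lower, against 4 and 1 before adjustment at p under 0.05. With no replicate block it called 0 and 0, and 3 of all probe sets higher. The same 0 and 0 came from limma under Benjamini-Hochberg adjustment, with dim probe sets under the 25th percentile removed, after quantile normalization and after cyclic loess, and from the adjusted t-test of the methods, with 1 probe set lower in all in that t-test and 0 in the others. Dkk4, Lrp4 and Kremen2, thus 3 higher, were called in IBMT (of 88 probe sets called higher in all), in the Cyber-T type test (162), in limma using trend and robust moderation (90), in limma above the median level (85 of 12974 tested) and in limma with each array centred on its median (56). The methods' t-test without adjustment gave 4, Kremen1 with these, of 802 higher. With and without adjustment this t-test was paired, as the methods state for the arrays. Leaving out each pair, limma called between 0 and 1 higher (Dkk4 without pair 2 and without pair 3, q = 0.0206 and q = 0.0284, of 5 and 10 probe sets). The following settings were chosen after seeing the data. Leaving out pairs, IBMT called between 0 and 3 higher (0 without pair 1, 2 without pair 2), while over all probe sets it called 0, 54 and 256 higher and 0, 2 and 269 lower without pairs 1, 2 and 3. Without pair 3 its prior came out infinite. Leaving out pairs in the Cyber-T type test gave 3 higher each time and between 0 and 1 lower (Sostdc1 without pair 1, q = 0.0418), of 337, 82 and 78 probe sets higher and 175, 8 and 25 lower. IBMT called 2 higher after cyclic loess, 3 after centring and 0 after quantile normalization, of 18, 54 and 1 probe sets higher. After quantile normalization Dkk4 and Lrp4 had q = 0.0735 each. The cause of these changes was not tested.

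Directions held in all 24 other settings for Dkk1, Dkk4, Kremen1, Kremen2, Lrp4, Lrp6 and Sostdc1, though many settings reuse the same difference. Dkk4 ranged from 1.91 to 2.31, Lrp4 from 0.89 to 0.99, Kremen2 from 0.62 to 0.85 and Sostdc1 from -0.44 to -0.27. Small differences changed sign. Dkk2 ranged from -0.12 (without replicate 1) to 0.20 with a replicate left out. Dkk3 was at 0.0317 after centring and ranged from -0.12 to 0.0813 (without replicate 2). Lrp5 was at -0.0233 after quantile normalization and -0.0217 after cyclic loess. The response of Lrp6 minus that of Lrp5 ranged from -0.0261 (without replicate 1) to 0.0935 (without replicate 3). Marker lists and the list of other Wnt surface genes were not run, for want of gene names. How far each signal lay above array background was not judged.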
